A study of Mus musculus with 63 samples.

Results

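The replication-dependent histone genes encode the bulk of the linker histone H1 and of the core histones H2A, H2B, H3 and H4, and lie in clusters as many near-identical copies. They were taken here as every probe whose annotated symbol begins Hist1h, Hist2h, Hist3h or Hist4h, or carries the current name of such a gene. The rule used names only and no measured value. It found 60 probes for 55 genes, of 16593 genes with a probe in the whole series: 6 H1, 15 H2A, 14 H2B, 9 H3 and 11 H4 genes. Of the 55 genes, 10 were found through an older symbol alone, among them H1f1 to H1f6. They lie on mouse chromosomes 13 (44 genes), 3 (7 genes), 11 (3 genes) and 6 (1 gene). A probe was tested where some line had it above the floor of the deposited values in each of its 3 cultures of an exposure. This filter kept 40 of the 55 genes: H1f2 among the H1 genes, 11 H2A, 8 H2B, all 9 H3 and all 11 H4 genes. The 15 that did not pass were H1f1, H1f3, H1f4, H1f5, H1f6, H2ac1, H2ac6, H2ac18, H2aw, H2bc1, H2bc3, H2bc6, H2bc8, H2bu1-ps and H2bu2, and counts below are of the 40 tested.

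Histone mRNAs of this type are made mainly in S phase, when newly copied DNA has to be packed into chromatin, and embryonic stem cells spend much of a short cycle in that phase. Their genes usually have no introns, and their mRNAs usually end in a conserved stem-loop in place of a poly(A) tail. NPAT drives their transcription, the stem-loop binding protein SLBP acts in their 3′ end processing and translation, and the mRNAs are degraded quickly when DNA synthesis stops. Some members can also give polyadenylated transcripts. The labelling kit named by the submitters, TotalPrep, starts reverse transcription from an oligo(dT) primer, so a transcript with a tail is favoured over one without. Whether a signal below came from tailed or tailless RNA was not tested.

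Expression was measured on Illumina mouse BeadChips in 63 cultures of 7 male TT2 mouse embryonic stem cell lines (C57BL/6 x CBA), all kept in serum with LIF. There were 2 JMJD1a KO lines, lacking the H3K9 demethylase gene Kdm3a; 2 G9a KO lines, with the H3K9 methyltransferase gene Ehmt2 targeted; 1 line in which G9a was put back into G9a KO1 (reconstituted); and 2 wild-type lines, WT1 and WT2. Every line was seeded at 2, 4 and 6 (times 100000) cells per 6 cm plate and, 18 h later, given 24 h of normoxia (21% oxygen), 20 h of normoxia and then 4 h at 1% oxygen (hypoxia), or hypoxia for all 24 h. Each genotype thus had 6 cultures per exposure from 2 lines, and the reconstituted cells had 3 from 1 line. The promoter that drives the returned G9a is not given in the sources used here. Cultures of 1 line are not separate lines, so p-values for exposure measure the spread between cultures within lines. The summed intensity of an array was 6974757 at the lowest and 8408782 at the highest, and the share of its probes over the floor was between 40.3 and 46.4%. Kdm3a was at the floor on all arrays of JMJD1a KO cells, against 10.08 to 11.07 (log2 intensity) in wild-type cells. Ehmt2 was lowered in part: its normoxia median was 7.91 in G9a KO cells, against 8.61 in wild-type cells, and 8.01 in reconstituted cells. At 4 h of hypoxia the Ehmt2 median was 8.40 in G9a KO, 9.12 in wild-type and 9.24 in reconstituted cells. At 24 h the Ehmt2 median was 8.60 in G9a KO, 9.72 in wild-type and 9.51 in reconstituted cells. Its probe may lie outside the deleted part. All 9 stem cell markers were above the floor on all 63 arrays; of 7 fibroblast markers, Thy1 was above it on 63 arrays, Col1a1 on 9, Col1a2 on 1 and the other 4 on none. Array totals moved in steps of 8 arrays in accession order, called array sets here. Sets explained a median of 43.2% of the variance of the 30 members above the floor on all arrays, against 61.5% over 5955 such genes, and exposure 15.9%, against 10.8%. Line explained 45.4%, against 56.1%. Each set held arrays of 1 or 2 lines, so the shares of set and line overlap.

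Promoter sequences from RefSeq (GRCm38.p6; 250 bases before to 50 after the annotated start) were available for 50 of the 55 genes, as 51 promoters of 300 bases. CCAAT was found on either strand in 84.3% of them, against 37.4% of all 32851 promoters; it was in every H1, H2A, H2B and H3 promoter and in 2 of 10 H4 promoters. TATAAA was in 58.8%, against 13.6% of all promoters. The octamer ATTTGCAT, first known from H2B genes, was in 27.5%, against 1.74%: 7 of 15 H2A and 7 of 13 H2B promoters and no other class held it. Overlapping windows of neighbouring genes were counted for both genes, and a match is a description of letters, not a site. The 5 promoters below are shown because the results turn on these genes or on their pairing. H2ac12 and H2bc7 each lie in a head-to-head H2A and H2B pair. H2ac20 is a bright H2A probe for which no such pair was found among members with a promoter sequence. A partner without a probe here would have been missed. H3c10 and H1f2 are an H3 and an H1 gene that moved in opposite directions at 24 h. Sequences run 5′ to 3′ on the gene's own strand, and capitals mark these 3 motifs on either strand. They lie at chr13:22035594-22035893 (minus strand, H2ac12), chr13:23574158-23574457 (minus, H2bc7), chr3:96220831-96221130 (minus, H2ac20), chr13:21717378-21717677 (plus, H3c10) and chr13:23738557-23738856 (plus, H1f2).
H2ac12: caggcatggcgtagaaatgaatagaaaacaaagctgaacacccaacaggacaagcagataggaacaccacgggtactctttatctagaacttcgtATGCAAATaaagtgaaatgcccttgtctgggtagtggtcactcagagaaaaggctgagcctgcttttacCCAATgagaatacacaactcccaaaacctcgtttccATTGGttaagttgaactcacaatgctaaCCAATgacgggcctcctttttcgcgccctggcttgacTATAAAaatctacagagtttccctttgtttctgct
H2bc7: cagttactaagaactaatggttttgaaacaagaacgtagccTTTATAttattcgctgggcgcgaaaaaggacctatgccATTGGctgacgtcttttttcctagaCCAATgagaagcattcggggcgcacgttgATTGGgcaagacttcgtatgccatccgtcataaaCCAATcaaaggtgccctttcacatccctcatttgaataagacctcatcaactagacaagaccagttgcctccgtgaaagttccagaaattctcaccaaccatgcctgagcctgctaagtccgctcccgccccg
H2ac20: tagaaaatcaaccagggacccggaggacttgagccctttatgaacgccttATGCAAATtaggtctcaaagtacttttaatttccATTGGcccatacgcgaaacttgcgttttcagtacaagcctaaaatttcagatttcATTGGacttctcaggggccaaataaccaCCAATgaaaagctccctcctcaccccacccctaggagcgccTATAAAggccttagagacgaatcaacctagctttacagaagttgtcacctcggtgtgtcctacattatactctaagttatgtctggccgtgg
H3c10: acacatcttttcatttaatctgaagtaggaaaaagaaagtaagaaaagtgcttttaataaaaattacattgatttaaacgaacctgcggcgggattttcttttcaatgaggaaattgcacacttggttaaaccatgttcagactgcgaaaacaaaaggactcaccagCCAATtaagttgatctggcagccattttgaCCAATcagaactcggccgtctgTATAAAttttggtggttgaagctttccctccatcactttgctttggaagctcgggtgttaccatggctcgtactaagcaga
H1f2: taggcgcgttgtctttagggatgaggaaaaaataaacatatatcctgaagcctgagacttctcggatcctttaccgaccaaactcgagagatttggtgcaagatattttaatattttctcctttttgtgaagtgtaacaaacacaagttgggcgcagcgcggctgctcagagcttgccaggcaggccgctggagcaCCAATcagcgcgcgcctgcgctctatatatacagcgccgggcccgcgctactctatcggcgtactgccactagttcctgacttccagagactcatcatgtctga
The H2ac12 and H2ac20 promoters each hold 3 CCAAT matches, 1 TATAAA and 1 octamer. TATAAA is at position 16, past the annotated start, in H2ac12 and at position -42 in H2ac20. H2bc7 has 4 CCAAT matches, and its only TATAAA is on the opposite strand at position -209 from the H2bc7 start. That position lies past the annotated start of its partner H2ac7, which is 174 bases from the H2bc7 start. H3c10 has 2 CCAAT matches and TATAAA at position -31, and H1f2 has 1 CCAAT match at position -54.

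After 4 h of hypoxia, H2A transcripts were lower in wild-type cells and few genes of the other classes were called. Of 11 H2A genes, 10 fell, with a median log2 difference of -0.31; 0 of 8 H2B, 1 of 9 H3 and 1 of 11 H4 genes fell, and no member rose. In all, 12 of 40 members fell and 0 rose, where 13.0% of all 8742 genes tested fell and 14.4% rose (limma, adjusted p under 0.05), and the median was -0.08 over members and 0.00 over all genes. H2A and H2B form the dimers that flank the H3 and H4 tetramer in the nucleosome. H2A went down without a called change in H2B at this time. In RNA from whole cultures, fewer cells of a type or phase and less RNA per cell cannot be told apart. The fall was from -0.21 ± 0.06 (SE) for H2ac10 to -0.46 ± 0.09 for H2ac8, which encode copies of canonical H2A. Most of the called H2A probes were brighter than most probes of other classes. In wild-type normoxia the median deposited intensity was 19924.2 for H2ac20 and 6852.5 for H2ac12, against 167.5 for H2bc12 and 232.0 for H3c1. H2ac8, at 91.7, was dim and called, and H3c13, at 3084.1, was bright and not called. The part of brightness was not tested.

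H2ac20 shows the size of the fall beside the spread. Its log2 normalized intensity had a lowest, median and highest value of 14.12, 14.34 and 14.53 in 6 normoxia cultures of wild-type cells, 13.89, 13.99 and 14.23 after 4 h and 14.29, 14.31 and 14.55 after 24 h of hypoxia. The 4 h and normoxia groups overlapped, and the 24 h median stood back at the normoxia level. The 4 h difference was -0.31 ± 0.09 (adjusted p = 0.00717). H2ac12, from the first promoter above, had 12.59, 12.79 and 13.02 in normoxia, 12.36, 12.47 and 12.65 at 4 h and 12.59, 12.74 and 13.17 at 24 h. Most 4 h cultures lay below the lowest normoxia culture and the rest overlapped, with a difference of -0.35 ± 0.10 (adjusted p = 0.0091). H2ac12 and H2ac20, and H2bc12 and H4c2 below, were chosen to be shown in full after their values were seen.

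Normoxia and 4 h arrays of each wild-type line shared an array set, so this comparison lay within sets. Within sets, H2ac12 differed by -0.35 in WT1 and by -0.35 in WT2, and H2ac20 by -0.32 in WT1 and -0.30 in WT2. Over all 7 lines, H2ac7, H2ac8, H2ac10, H2ac11, H2ac12, H2ac15, H2ac20, H2ac21 and H2ac22 were each lower at 4 h in 7 of 7, and H2ac24 in 6 of 7. Most H2A genes also ran together: between pairs of the 10 genes that no array had at the floor, the median correlation over 63 arrays was 0.77, as a description of arrays that share line, set and exposure. With the means of line and exposure removed it was 0.45. Pairs of 7 H2B genes had a median of 0.69 both ways. H2ac8 stood apart from the other H2A genes, with correlations over 63 arrays of -0.129 to 0.115. Copies this alike can share a probe's signal, and the sharing was not tested because probe sequences were not used here. With WT1 left out 5 members were called at 4 h, and with WT2 left out 3, all lower, from 3 cultures per exposure instead of 6.

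**Figure D1:**
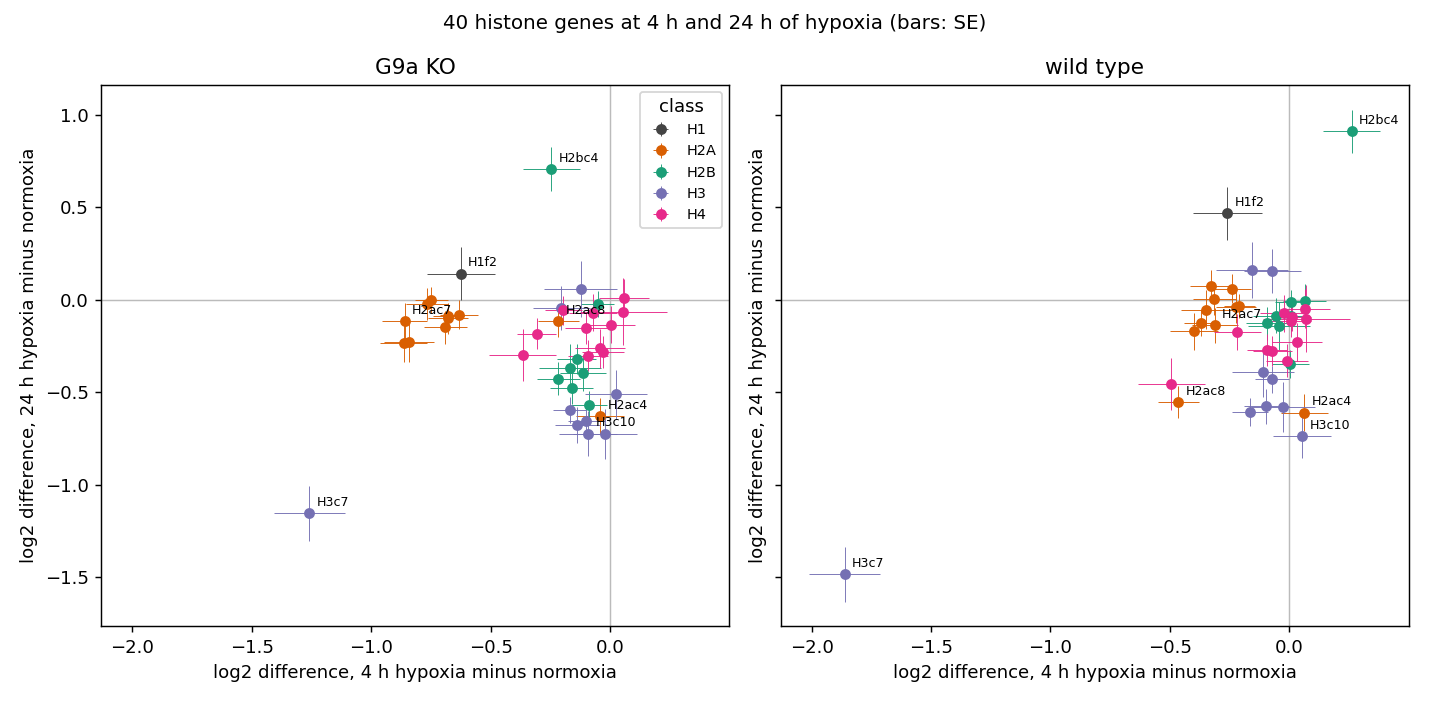
Log2 difference from normoxia at 4 h (x axis) and at 24 h (y axis) for 40 histone genes, G9a KO on the left and wild type on the right, coloured by class, with bars for the SE. At 4 h the H2A genes called lower, 10 of 11 in each panel, lie to the left of 0, and H2ac4 lies at -0.04 in G9a KO and 0.06 in wild-type cells. At 24 h 7 of 9 H3 genes in each panel were called lower, and H3c13 and H3c14 were not (-0.05 and 0.06 in G9a KO cells, 0.15 and 0.16 in wild-type cells).

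Some H2A and H2B genes share one stretch of promoter DNA. Such pairs were searched for only among the 50 members with a promoter sequence. H2bc4 had no sequence, so a pair that includes it would have been missed. RefSeq placed 6 pairs in this search, with starts 164 to 281 bases apart on opposite strands. Both genes were tested in 4 of these pairs: H2ac15 with H2bc15, H2ac12 with H2bc12, H2ac11 with H2bc11 and H2ac7 with H2bc7. Their promoter windows share 252 to 277 bases, so both genes face nearly the same sequence. In wild-type cells at 4 h, H2ac15 fell by 0.40, H2ac12 by 0.35, H2ac11 by 0.37 and H2ac7 by 0.31, and none of the 4 H2B partners passed the test. In the H2ac12 pair, H2bc12 had 7.23, 7.53 and 7.83 in normoxia, 7.39, 7.47 and 7.73 at 4 h and 6.86, 7.19 and 7.40 at 24 h (lowest, median, highest). H2bc12 stayed at its normoxia level at 4 h and was lower at 24 h, by -0.35 ± 0.08 (adjusted p = 0.00029), when H2ac12 was not called; with the array set as a fixed block it was -0.19 (adjusted p = 0.0453). Whether partners differ from each other was not tested, since each is read by its own probe.

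After 24 h of hypoxia, the H3 genes were lower in wild-type cells, most H2A genes were no longer called, and 2 members were higher. Of 9 H3 genes, 7 fell, with a median of -0.58; 2 of 11 H2A, 1 of 8 H2B and 4 of 11 H4 genes fell, and H2bc4 and H1f2 rose. That made 14 of 40 members lower and 2 higher, where 18.9% of all genes fell and 18.0% rose; the member median was -0.13, and that of all genes 0.00. Between 4 h and 24 h, 8 members rose and 8 fell, where 12.3% of all genes rose and 14.3% fell. The risers were 6 H2A genes with H2bc4 and H1f2, and 5 of the 8 that fell were H3 genes.

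H3c7 (older name Hist1h3f, chr13:23544052-23544954) had the largest difference of any member in wild-type cells at both times. It encodes H3.2, one of the H3 proteins deposited during replication. In wild-type cells its values were 5.80, 6.25 and 6.31 in normoxia, 4.32 in all 6 cultures at 4 h, which is the floor, and 4.32, 4.79 and 4.93 at 24 h. Neither hypoxia group overlapped normoxia. At 4 h it was at least 3.36-fold lower (adjusted p = 8.1e-14), and at 24 h the difference was -1.48 ± 0.15 (adjusted p = 4.1e-11) with values at the floor in part, which can understate it. In deposited units this is a dim probe, with a wild-type median of 68.0 in normoxia and 25.7 at 24 h over a floor of 20. Another 2 probes for H3c7 were at the floor on all 63 arrays.

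H3c10 and H3c1 stood for the slower fall. H3c10 had 5.04, 5.49 and 6.13 in wild-type normoxia, 5.09, 5.55 and 6.08 at 4 h and 4.32, 4.76 and 5.31 at 24 h; the groups overlapped in part, 2 of the 6 cultures at 24 h were at the floor, and the 24 h difference was -0.74 ± 0.12 (adjusted p = 3.4e-06). H3c1 had 7.77, 7.94 and 8.32 in normoxia, 7.64, 7.78 and 8.13 at 4 h and 7.07, 7.40 and 7.64 at 24 h. Every 24 h culture was below every normoxia culture, with a difference of -0.61 ± 0.08 (adjusted p = 1.5e-08). H3c6 had 8.75, 8.84 and 9.17 in normoxia, 8.54, 8.76 and 9.03 at 4 h and 7.99, 8.30 and 8.75 at 24 h. Its 24 h cultures were also all lower, by -0.58 ± 0.09 (adjusted p = 3.2e-06). H3c4, with 8.64, 8.79 and 8.96 in normoxia, 8.51, 8.77 and 8.88 at 4 h and 8.10, 8.35 and 8.75 at 24 h, fell by 0.43 with overlapping groups.

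Both remaining H3 genes that fell were dim. H3c3 had 4.32, 5.05 and 5.55 in normoxia, 4.32, 4.96 and 5.47 at 4 h and 4.32, 4.32 and 4.96 at 24 h, and fell by 0.58 with several cultures at the floor. H3c8 had 4.80, 5.18 and 5.53 in normoxia, 4.86, 5.01 and 5.47 at 4 h and 4.53, 4.71 and 5.18 at 24 h, and fell by 0.39 with overlapping groups. With the array set as a fixed block neither was called, at -0.40 (adjusted p = 0.0615) and -0.36 (adjusted p = 0.0617), and all the other H3 falls were. In each of 7 lines, H3c1, H3c4, H3c6, H3c7, H3c8 and H3c10 were lower at 24 h than in normoxia, and H3c3 in 6 of 7.

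H2bc4 (Hist1h2bc, an H2B gene, chr13:23684199-23692480) went the other way. It had 7.11, 7.29 and 7.79 in wild-type normoxia, 7.41, 7.64 and 7.77 at 4 h and 7.86, 8.22 and 8.78 at 24 h. All 24 h cultures were above all normoxia cultures, by 0.91 ± 0.12 (adjusted p = 2.8e-08), and the 4 h difference of 0.26 was not called. With the array set as a fixed block the 24 h difference was 0.85 (adjusted p = 3.0e-05). It was higher at 24 h in 7 of 7 lines, by 0.66 to 1.88. Its annotated span of 8282 bases is unlike the family's median of 488; 2 of 55 members span over 1000 bases, and the other, H2bc6, was not tested. A second H2bc4 probe was at the floor on all wild-type arrays, so it gives no value for this rise; in G9a KO cells, where none of the 6 cultures of any exposure lay at the floor, it was higher at 24 h than in normoxia by 1.29 ± 0.14 (adjusted p = 2.4e-10).

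H1f2 (Hist1h1c, chr13:23738807-23739531), a linker histone that binds where DNA enters and leaves the nucleosome, had 6.36, 7.41 and 7.90 in wild-type normoxia, 6.29, 7.10 and 7.56 at 4 h and 7.24, 7.87 and 8.11 at 24 h. The groups overlapped, and the 24 h difference was 0.47 ± 0.14 (adjusted p = 0.00817). It was higher in 7 of 7 lines, by 0.08 to 1.47. In wild-type cells the call rested on WT1: without WT1 the difference was 0.11 (adjusted p = 0.731), and with the array set as a fixed block 0.38 (adjusted p = 0.0847).

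Among H2A and H4 genes, H2ac4 had 5.12, 5.25 and 5.42 in wild-type normoxia, 5.01, 5.29 and 5.71 at 4 h and 4.32, 4.72 and 4.91 at 24 h. Alone of the 11 H2A genes it was not called at 4 h, and all its 24 h cultures were below normoxia, by -0.61 ± 0.10 (adjusted p = 2.7e-06). H2ac8 was lower at both times, with 6.36, 6.68 and 6.85 in normoxia, 5.66, 6.30 and 6.48 at 4 h and 5.76, 6.06 and 6.60 at 24 h, a 24 h difference of -0.55 ± 0.09. H4c14, at 4.71, 4.83 and 5.57 in normoxia, 4.32, 4.32 and 4.87 at 4 h and 4.32, 4.39 and 5.01 at 24 h, fell by 0.49 and 0.45 with many cultures at the floor. The other H4 falls at 24 h were H4c12 (-0.33), H4c9 (-0.28) and H4c11 (-0.27). With the array set as a fixed block, 10 of the 14 falls and 1 of the 2 rises at 24 h were called again. All 12 falls at 4 h were too, but normoxia and 4 h arrays of each wild-type line shared a set. The block could therefore not test the 4 h falls.

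**Figure D2:**
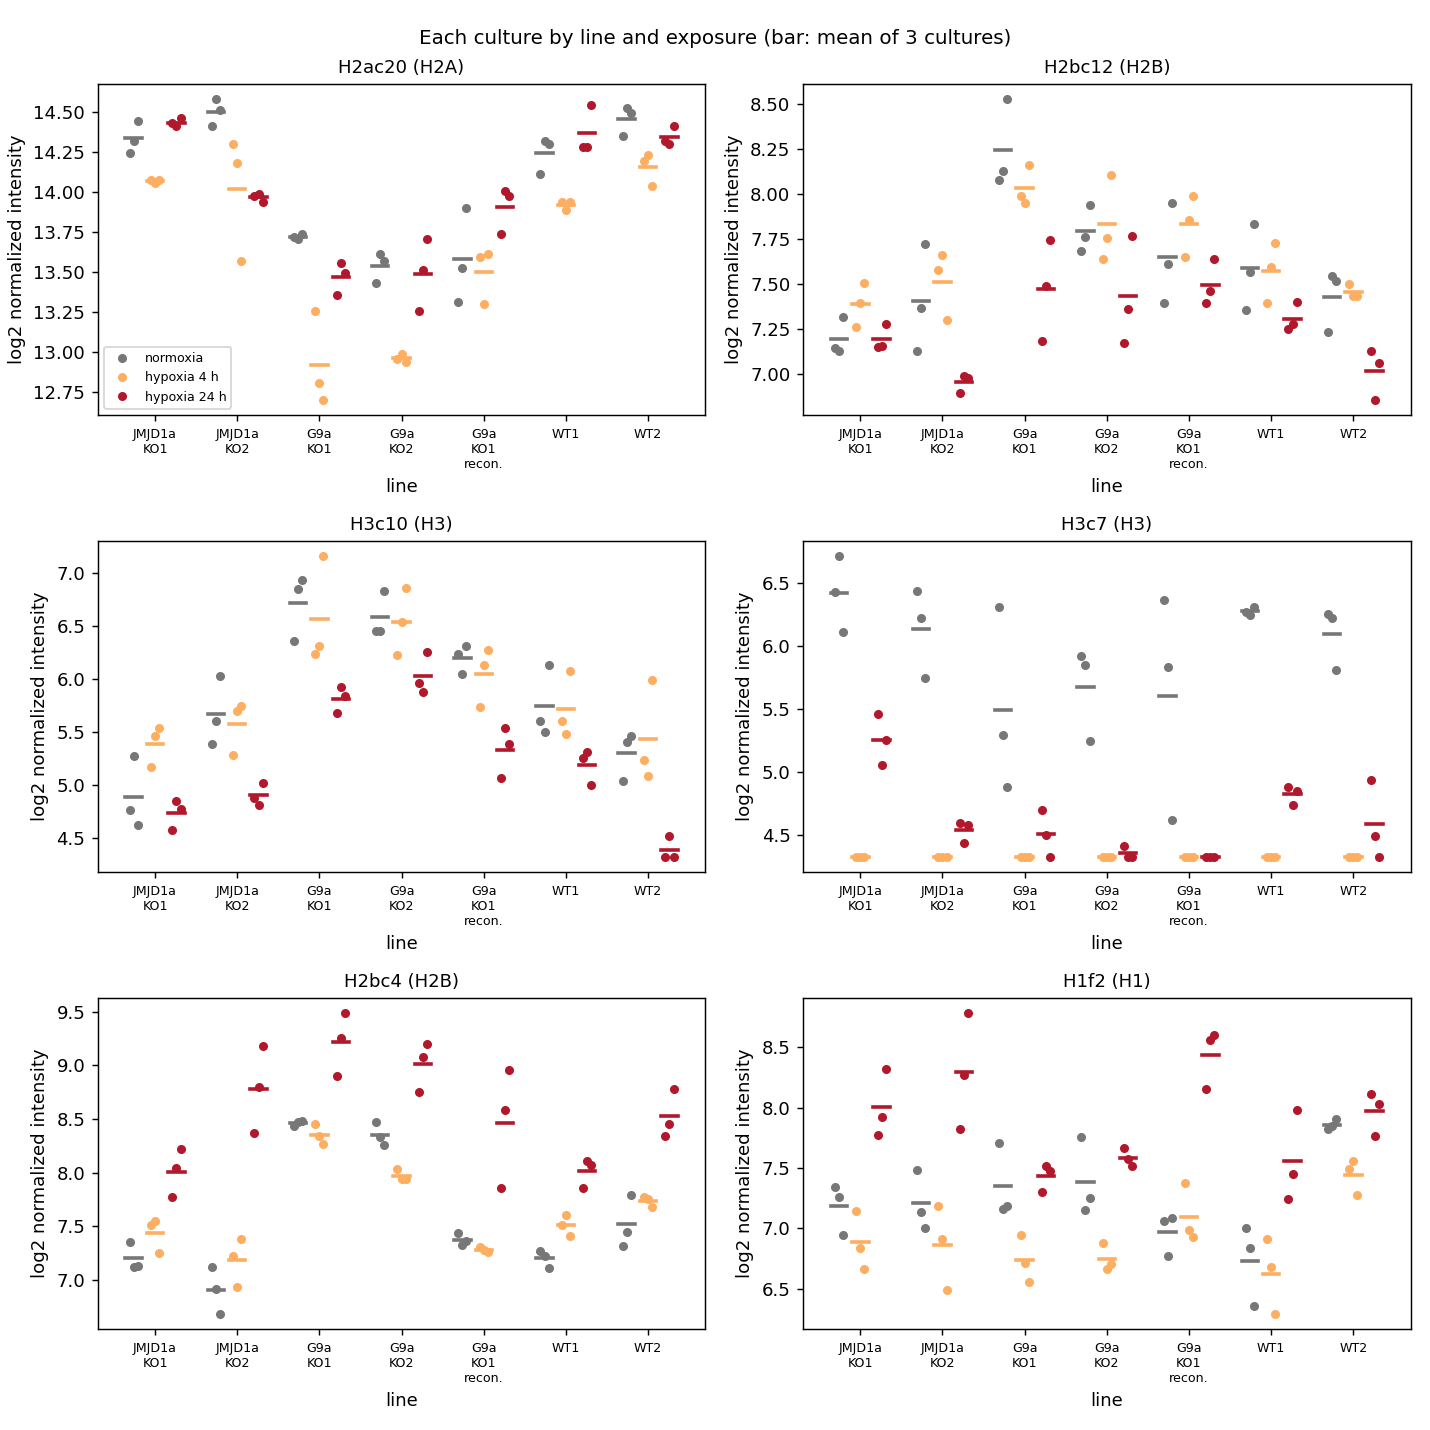
Log2 normalized intensity of each culture by line and exposure for H2ac20, H2bc12, H3c10, H3c7, H2bc4 and H1f2; points are cultures and bars the mean of 3. H2ac20 is lower at 4 h than in normoxia in all 7 lines and H3c7 lies at the floor of 4.32 at 4 h. H2bc4 is higher at 24 h than in normoxia in all 7 lines.

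In JMJD1a KO cells the same comparison asked whether the response holds without this demethylase. At 4 h, 9 of 11 H2A genes fell, with a median of -0.31; members gave 2 rises and 11 falls of 40, where 13.5% of all genes rose and 16.8% fell. H2ac12 had 12.66, 12.89 and 13.11 in normoxia, 11.98, 12.51 and 12.68 at 4 h and 12.26, 12.56 and 13.01 at 24 h, so the 4 h and normoxia groups touched at one end only, and the 4 h difference was -0.45 ± 0.10 (adjusted p = 0.00066). H3c7 was again at the floor in all 6 cultures at 4 h, at least 3.54-fold lower than normoxia. At 24 h, 3 members rose and 13 fell, where 22.4% of all genes rose and 27.5% fell. H2bc4 had 6.68, 7.12 and 7.35 in normoxia, 6.94, 7.31 and 7.55 at 4 h and 7.77, 8.29 and 9.18 at 24 h, with no overlap between 24 h and normoxia and a difference of 1.34 ± 0.12 (adjusted p = 7.1e-13). H1f2 had 6.94, 7.20 and 7.48 in normoxia, 6.49, 6.88 and 7.19 at 4 h and 7.77, 8.10 and 8.78 at 24 h, without overlap, and rose by 0.95 ± 0.14 (adjusted p = 4.3e-07). H3c14, an H3.2 gene on chromosome 3, was the third riser (0.44). Its change was 1.09 in JMJD1a KO2 and -0.21 in JMJD1a KO1. In JMJD1a KO2 the normoxia arrays lay in set 4 and the 24 h arrays in set 5. Between these sets, the 4 h arrays of that line differed by 0.96 for H3c14, so exposure and set cannot be told apart. The 4 h count rested on both lines: without JMJD1a KO1 0 members rose and 7 fell, 6 of them H2A genes, and without JMJD1a KO2 2 rose and 3 fell (H2ac8, H2ac11 and H3c7).

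The 24 h falls in JMJD1a KO cells covered 5 of 9 H3 genes (H3c1, H3c4, H3c6, H3c7 and H3c10) and 6 of 11 H2A genes. The H2A part rested on JMJD1a KO2: without that line none of the 6 was called, H2ac12 was 0.08, H2ac15 0.09 and H2ac20 0.10, and 8 members were called in place of 16. H3c10 (-0.15) and H3c14 (-0.21) were not called there either. JMJD1a KO2 was also the line whose normoxia and 24 h arrays lay in different sets with a 4 h culture in each; in that line alone, with the set as a block, 4 members rose and 1 fell, H2bc4 by 1.70 (adjusted p = 3.2e-04) and H3c7 by -1.82 (adjusted p = 1.1e-04). Between 4 h and 24 h, 5 members rose and 8 fell in JMJD1a KO cells, where 14.7% of all genes rose and 20.0% fell.

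In G9a KO cells H2A genes fell at 4 h as well. The fall covered 10 of 11 H2A genes, with a median of -0.69, and 15 of 40 members in all with no rise, where 17.5% of all genes fell and 16.3% rose. H2ac20 had 13.43, 13.66 and 13.74 in normoxia, 12.70, 12.95 and 13.25 at 4 h and 13.25, 13.50 and 13.71 at 24 h; no 4 h culture reached normoxia, and the 4 h difference was -0.69 ± 0.09 (adjusted p = 3.7e-08). H2ac12 had 11.79, 11.94 and 12.09 in normoxia, 10.84, 11.04 and 11.48 at 4 h and 11.54, 11.66 and 11.98 at 24 h, again with no overlap at 4 h, and fell by 0.84. Against 4 h, 24 h of hypoxia brought 11 rises and 12 falls, where 17.1% of all genes rose and 20.1% fell. The rises were 9 of 11 H2A genes (0.54 to 0.75) with H1f2 and H2bc4, and all of these rises and falls were called with the array set as a block. Part of the 4 h size moved with the set: in G9a KO1 alone, with the set as a block, most H2A differences were between -0.36 and -0.48. These rest on 1 array at 4 h, the only one in set 5 with the 3 normoxia arrays of that line. Whether the fall differs from that in wild-type cells was not tested.

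At 24 h, H2B genes were lower in G9a KO cells, mainly in G9a KO1. Of 8 H2B genes, 6 fell (H2bc7, H2bc9, H2bc11, H2bc12, H2bc14 and H2bc15, by 0.32 to 0.57), with 7 of 9 H3, 3 of 11 H4 and 2 of 11 H2A genes. That was 18 falls and 1 rise in 40 members, where 24.8% of all genes fell and 21.2% rose, and the member median was -0.21 beside 0.00 over all genes. H2bc12 had 7.69, 8.01 and 8.53 in normoxia, 7.64, 7.97 and 8.16 at 4 h and 7.18, 7.42 and 7.77 at 24 h, and fell by 0.57 ± 0.08 (adjusted p = 3.5e-08) with little overlap. H3c10, at 6.36, 6.65 and 6.93 in normoxia, 6.23, 6.43 and 7.17 at 4 h and 5.68, 5.90 and 6.26 at 24 h, fell by 0.72 without overlap. The rise was H2bc4, at 8.26, 8.45 and 8.48 in normoxia, 7.94, 8.15 and 8.45 at 4 h and 8.75, 9.14 and 9.49 at 24 h, by 0.71 ± 0.12 (adjusted p = 3e-06). Without G9a KO1, 1 member rose and 10 fell, and of the H2B falls H2bc12 (-0.36) and H2bc9 (-0.32) were still called, beside H2bc7 at -0.21, H2bc11 at -0.08, H2bc14 at -0.05 and H2bc15 at -0.27. In each G9a KO line the normoxia and 24 h arrays lay in different array sets, so exposure and set ran together. Over both lines this comparison could not be fitted with the set as a fixed block. With the array set as a random block, 16 of the 18 falls and the rise were called again.

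In the reconstituted line, with 3 cultures per exposure, members were called in both directions at 4 h and at 24 h. At 4 h, 3 members rose and 8 fell, 4 of them H2A genes, where 22.9% of all genes rose and 14.6% fell. At 24 h, 8 rose and 11 fell, where 23.6% of all genes rose and 15.4% fell; the falls were 5 H3 genes, 5 H4 genes and H2bc15. Between 4 h and 24 h, 10 rose and 10 fell, where 9.19% of all genes rose and 9.32% fell, and the rises were 8 of 11 H2A genes with H2bc4 and H1f2. H2bc4 was 7.32, 7.36 and 7.44 in normoxia, 7.26, 7.28 and 7.31 at 4 h and 7.85, 8.59 and 8.95 at 24 h, and H1f2 was 6.77, 7.06 and 7.09 in normoxia, 6.93, 6.98 and 7.38 at 4 h and 8.15, 8.56 and 8.60 at 24 h. All 24 h cultures were above normoxia for both, by 1.09 ± 0.17 for H2bc4 and 1.47 ± 0.20 for H1f2 (adjusted p = 1.4e-06 and 1.9e-07).

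Of the 3 normoxia arrays of the reconstituted line, 2 were in another array set than its hypoxia arrays. With the set as a fixed block, the 5 H2A rises at 24 h were no longer called (0.05 to 0.18), 2 rises (H2bc4 and H1f2) and 7 falls of 24 h were called again, and 2 falls of 4 h. The share of calls that were higher over all genes moved with the scaling, from 60.5 to 44.7% at 24 h and from 61.2 to 44.9% at 4 h with the deposited values on the log2 scale alone. The members then gave 6 rises and 17 falls at 24 h and 2 rises and 10 falls at 4 h.

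**Figure D3:**
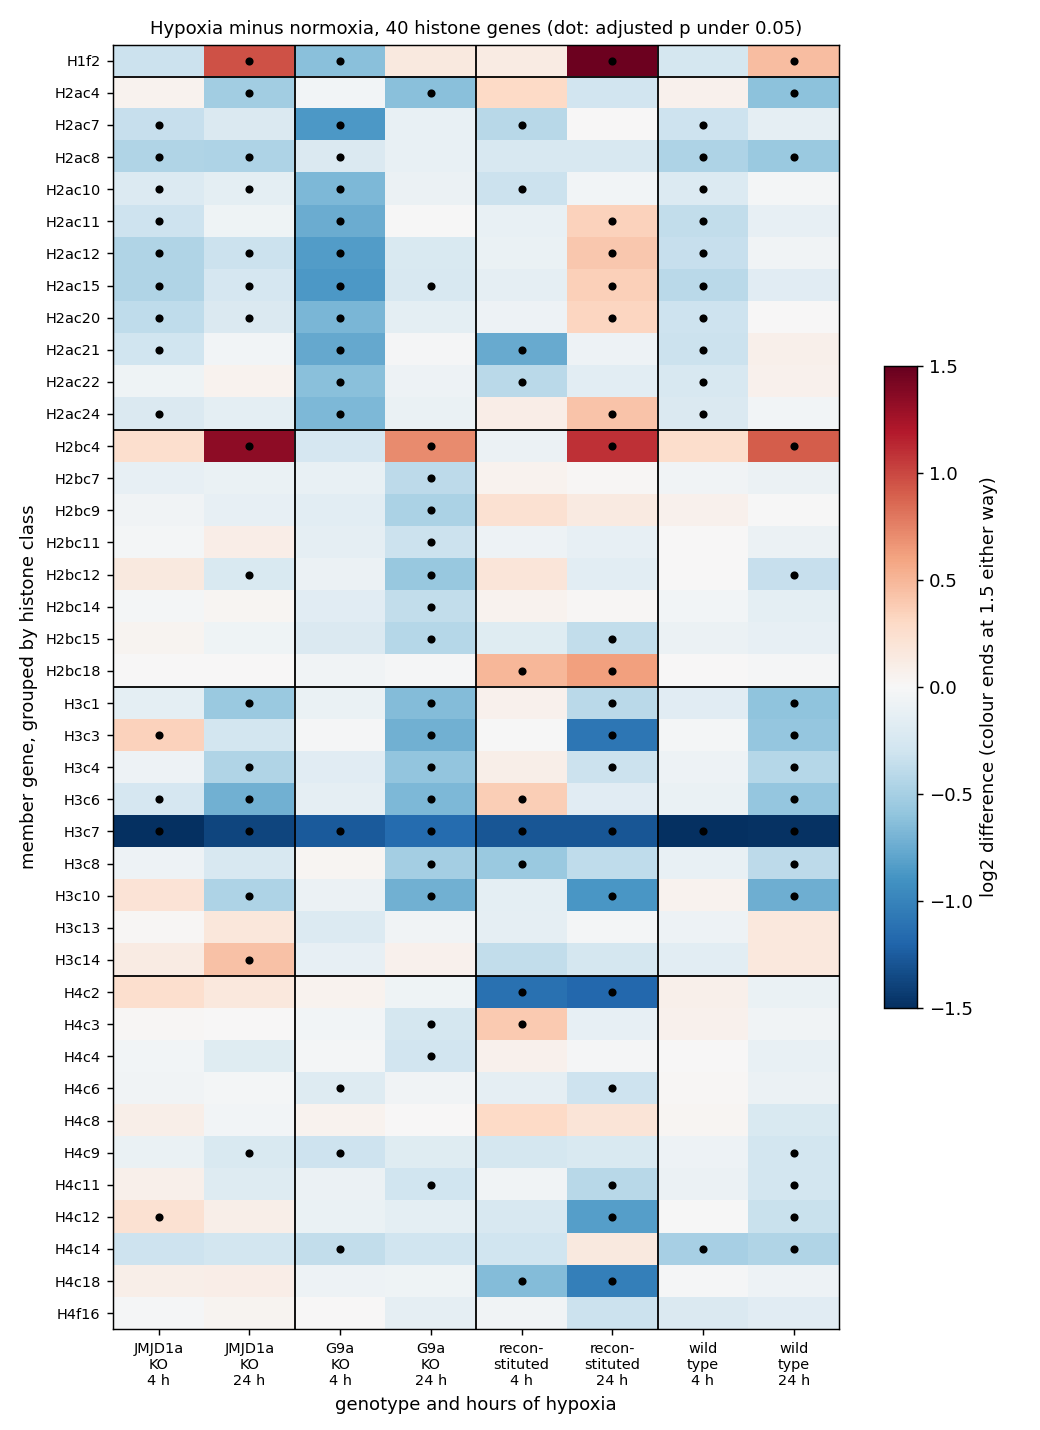
Log2 difference between hypoxia and normoxia for 40 histone genes (rows, by class) in JMJD1a KO, G9a KO, reconstituted and wild-type cells at 4 h and 24 h (columns); dots mark an adjusted p under 0.05. At 4 h the H2A genes called lower (blue) number 9 in JMJD1a KO, 10 in G9a KO, 4 in reconstituted and 10 in wild-type cells. At 24 h 5, 7, 5 and 7 of 9 H3 genes are called lower, and H2bc4 is red in every genotype. H3c14 is called higher at 24 h in JMJD1a KO cells, from JMJD1a KO2 (1.09) and not JMJD1a KO1 (-0.21).

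Between JMJD1a KO and wild-type cells no member passed the test in normoxia, at 4 h, at 24 h or in the change at 24 h. Each of these comparisons of 2 lines with 2 called 0.0114% of all genes, which is Kdm3a itself, except the change at 24 h, which called 0%. At an unadjusted p under 0.05 there were 0 of 40 members in each, beside 380, 500, 541 and 229 of all genes. The member medians were -0.09 in normoxia, -0.03 at 4 h and -0.03 at 24 h. With 2 lines on each side, a miss of the threshold does not show that the levels are alike.

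In normoxia, members called between G9a KO and wild-type cells went in opposite directions by class. The called H2A genes were lower, and the called H4 genes and H2bc4 were higher. In normoxia 7 of 11 H2A genes fell and 5 of 11 H4 genes and 1 of 8 H2B genes rose, while no H3 gene was called. This was 6 rises and 7 falls in 40 members, where 7.36% of all genes rose and 16.1% fell; the median was 0.23 over members and -0.12 over all genes. H2ac20 had a lowest, median and highest value of 13.43, 13.66 and 13.74 in G9a KO cells, against 14.12, 14.34 and 14.53 in wild-type cells. The groups were apart, by -0.72 ± 0.12 (adjusted p = 0.031). The other H2A falls were H2ac12 (-0.90), H2ac15 (-0.83), H2ac7 (-0.69), H2ac24 (-0.54), H2ac11 (-0.41) and H2ac10 (-0.35). The H2A genes not called were not lower in deposited units, before normalization. Their normoxia medians in G9a KO against wild-type cells were 58.0 against 33.1 for H2ac4 and 110.0 against 91.7 for H2ac8. For H2ac21 they were 1075.5 against 958.1, and for H2ac22 11221.0 against 9409.9.

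H4 and H3 form the tetramer at the core of the nucleosome, and all copies of H4 encode the same protein. H4c2 had 5.96, 6.26 and 6.58 in G9a KO cells, against 4.32, 4.90 and 5.41 in wild-type cells, a difference of 1.48 ± 0.21 (adjusted p = 0.0233) with no overlap. H4c18 (1.03), H4c12 (1.02), H4c6 (0.85) and H4c3 (0.80) also rose; 3 of the 6 wild-type values of H4c3 were at the floor. H2bc4 had 8.26, 8.45 and 8.48 in G9a KO cells, against 7.11, 7.29 and 7.79 in wild-type cells, with no overlap and a difference of 1.05 ± 0.16 (adjusted p = 0.027); its second probe was above the floor in 6 of 6 G9a KO and 0 of 6 wild-type cultures. At 4 h 11 members rose and 7 fell, where 11.6% of all genes rose and 22.7% fell; the falls were all H2A, and the rises were 6 H4 genes, 4 H3 genes and H2bc12. At 24 h 5 rose and 1 fell, where 3.25% of all genes rose and 3.53% fell; H4c3, H4c8, H4c12, H4c18 and H3c3 were higher and H2ac7 lower. For the difference in the change at 24 h, limma called no member and no gene (0%), with 0 of 40 members and 553 of all genes at an unadjusted p under 0.05.

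Genotype and array set cannot be told apart, since no array set held both G9a KO and wild-type arrays. Where arrays of 1 line and exposure fell in 2 sets, which gave 5 steps per gene, H4c2 stepped by -1.11 to 1.22, H2ac12 by -0.64 to 0.56 and H2ac15 by -0.76 to 0.42, sizes like the genotype differences. The steps of H2bc4 were smaller, -0.15 to 0.30, as were those of H4c12 (-0.33 to 0.38). Set 5 held G9a KO1 and JMJD1a KO2, with 1 array each at 4 h. There H2bc4 was 8.45 in G9a KO1 and 7.38 in JMJD1a KO2, H4c12 was 7.08 in G9a KO1 and 6.44 in JMJD1a KO2, H4c2 was 5.89 in G9a KO1 and 5.76 in JMJD1a KO2, and H2ac12 was 11.48 in G9a KO1 and 11.98 in JMJD1a KO2. The other arrays of set 5 differ in exposure as well as line, 3 of G9a KO1 in normoxia and 3 of JMJD1a KO2 at 24 h. Among them H2bc4 was 8.43 to 8.48 in G9a KO1 and 8.36 to 9.18 in JMJD1a KO2, so the lines overlapped. H4c2 was 5.96 to 6.50 in G9a KO1 and 4.87 to 5.11 in JMJD1a KO2, and H4c12 was 7.09 to 7.44 in G9a KO1 and 6.02 to 6.36 in JMJD1a KO2, each with no overlap. Without G9a KO2 no member was called in normoxia, without G9a KO1 2 were, and without WT2 6 rises and no fall; without either G9a KO line or either wild-type line none was called at 24 h. The stem cell marker sum also differed in normoxia, 47199 to 52119 in G9a KO cells, against 39672 to 43316 in wild-type cells, as did the fibroblast marker sum (167 to 181, against 185 to 245); their part in the result was not tested.

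Scaling moved these counts. The all-gene median of G9a KO minus wild-type in normoxia was 0.04 with the deposited values on the log2 scale alone, and the share of all calls that were higher went to 53.6%, beside 31.4% with quantile normalization. In 4 h hypoxia it was 54.0%, beside 33.8%, and in 24 h hypoxia 68.4%, beside 47.9%. Members then gave 13 rises and 6 falls in normoxia, 14 and 7 at 4 h, and 8 and 1 at 24 h. Each of the 13 members called in normoxia kept its direction under both other scalings, and H2ac10 lost its call under both.

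**Figure D4:**
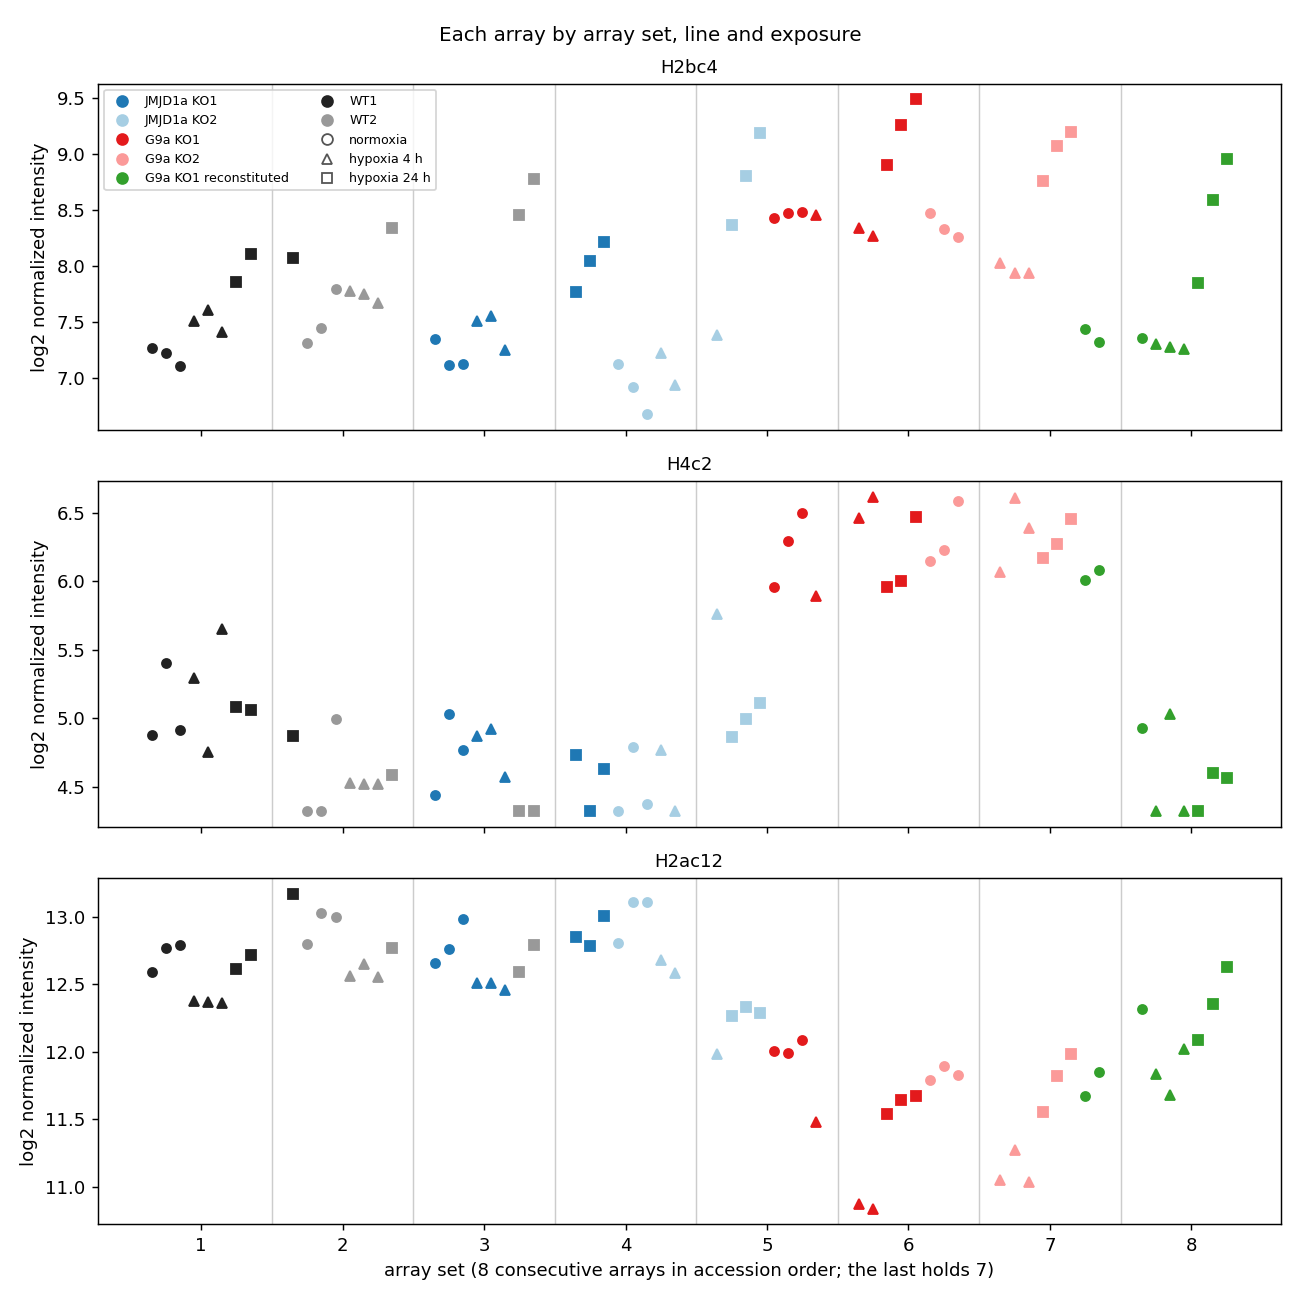
Log2 normalized intensity of H2bc4, H4c2 and H2ac12 on each array, placed by array set (8 consecutive arrays, the last 7), coloured by line and shaped by exposure. In set 5, H2bc4 at 4 h was 8.45 in G9a KO1 against 7.38 in JMJD1a KO2, while the JMJD1a KO2 arrays at 24 h (8.36 to 9.18) span the G9a KO1 arrays in normoxia (8.43 to 8.48); for H4c2 the 4 h array of G9a KO1 was 5.89 and that of JMJD1a KO2 5.76, with 5.96 to 6.50 in G9a KO1 in normoxia and 4.87 to 5.11 in JMJD1a KO2 at 24 h.

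Putting G9a back into G9a KO1 went with lower H2B, H3 and H4 genes in normoxia. Against G9a KO1, 7 of 8 H2B, 5 of 9 H3, 5 of 11 H4 and 1 of 11 H2A genes fell and none rose, 18 of 40 members, where 13.3% of all genes fell and 14.9% rose. H2bc4 had 7.32, 7.36 and 7.44 in reconstituted cells, against 8.43, 8.48 and 8.48 in G9a KO1 cells, a difference of -1.09 ± 0.17 (adjusted p = 1.3e-06) with no overlap; the reconstituted values lay within the wild-type range of 7.11 to 7.79. H2bc15 (-0.82), H3c3 (-0.77), H2bc14 (-0.73) and H2bc11 (-0.73) followed. Among the H2A genes that were low in G9a KO cells, H2ac12 had 11.67, 11.85 and 12.32 in reconstituted cells, against a range of 11.99 to 12.09 in G9a KO1 cells, and was not called in normoxia. At 4 h 9 members rose and 15 fell, where 33.7% of all genes rose and 20.7% fell. At 24 h 8 rose and 12 fell, where 34.9% of all genes rose and 20.5% fell; 6 H2A genes were higher (H2ac12 by 0.74), H4c2 was lower (-1.65) and H1f2 higher (1.00).

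These compare 1 line with 1 line, in different array sets throughout. With the set as a random block, 7 of the 18 normoxia falls were called again, 1 fall at 4 h and 1 rise at 24 h. The share of all calls that were higher moved from 63.0 to 42.9% at 24 h and from 61.9 to 46.7% at 4 h with the deposited values alone, and members then gave 7 rises and 15 falls at 24 h and 7 and 18 at 4 h.

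Seeding density was fitted as a slope per 100000 cells over all lines and exposures. Histone genes rose with density: 16 of 40 members rose and 2 fell, where 15.0% of all genes rose and 17.7% fell, and the median slope was 0.03 over members and 0.00 over all genes. By class, 6 of 8 H2B, 5 of 9 H3, 3 of 11 H2A and 2 of 11 H4 genes rose. The steepest was H3c10, with a mean of 5.84 at the highest density and 5.48 at the lowest and a slope of 0.09 ± 0.02 (adjusted p = 2.9e-05). H2bc12 had a mean of 7.66 at the highest and 7.39 at the lowest density (slope 0.07 ± 0.01, adjusted p = 1.1e-06), and H3c1, H3c3, H3c4 and H3c6 had slopes of 0.06 to 0.07. H3c7 (-0.08) and H2ac8 (-0.05) fell. With the array set as a fixed block, 27 members rose and 2 fell, and all 16 rises and 2 falls were among them.

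**Figure D5:**
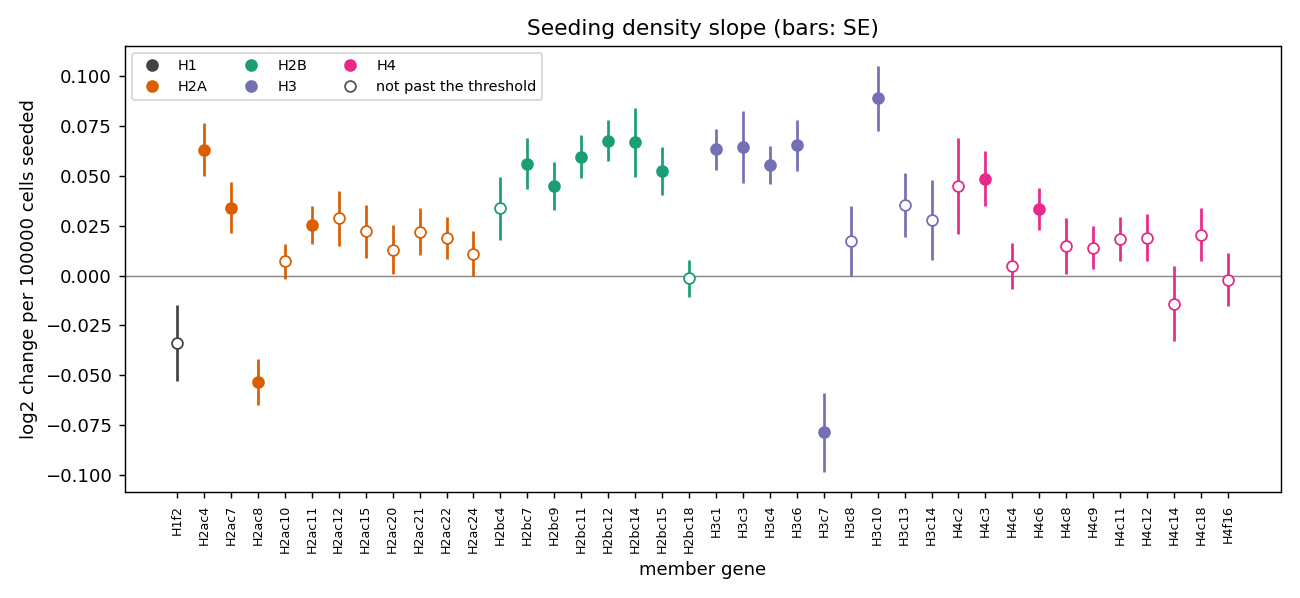
Slope of log2 normalized intensity per 100000 cells seeded for 40 histone genes, coloured by class, with the SE; filled points passed the test. H2B and H3 genes lie above 0 with slopes up to 0.09, and H3c7 (-0.08) and H2ac8 (-0.05) lie below.

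Calls among other genes of histone supply and S phase are to be read against the shares of all genes called in wild-type cells. At 24 h 18.0% of all genes rose and 18.9% fell, and at 4 h 14.4% rose and 13.0% fell. Of 10 tested genes for histone mRNA transcription and 3′ end processing, 2 rose and 0 fell at 24 h in wild-type cells, Srrt (0.31), which acts with the cap-binding complex, and Zfp473 (0.29), a partner of the processing machinery; at 4 h Cstf2 (0.30), of the cleavage complex, and Upf1 (0.19), which takes part in histone mRNA decay, rose and none fell. Of 18 genes of S phase entry and DNA synthesis, 3 rose and 3 fell at 24 h, led by Rrm2 (0.46), a ribonucleotide reductase subunit, and Mcm7 (-0.35), of the replicative helicase. At 4 h 3 rose and 3 fell, E2f1 (0.65), a transcription factor of S phase entry, upwards and Ccne1 (-0.40), cyclin E1, Mcm7 (-0.35) and Cdk2 (-0.33), the kinase that cyclin E1 activates, downwards. Of 15 chaperones, which carry histones to DNA, 3 rose and 6 fell at 24 h, among them Atrx (-0.55), Ipo4 (-0.37), Chaf1a (0.27) and Hjurp (0.23).

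Histone variant genes are in general also expressed outside S phase, and many give polyadenylated mRNAs. Of 8 such genes, 2 rose and 3 fell at 24 h in wild-type cells, where 18.0% of all genes rose and 18.9% fell. Macroh2a1 (0.39) and H2ax (0.37) rose, and H1f10 (-0.26), H2az1 (-0.19) and H3f3a, an H3.3 gene, fell. At 4 h 1 rose and 2 fell, where 14.4% of all genes rose and 13.0% fell. The median difference of the 9 replication-dependent H3 genes was -0.58 at 24 h, beside -0.17 ± 0.06 for H3f3a. With density, 3 variant genes rose and none fell, H1f10 by 0.09 and Macroh2a1 by 0.06, while 8 of 15 chaperone genes fell and none rose. Over all genes, 15.0% rose and 17.7% fell with density. The stem cell marker sum was also lower at 24 h of hypoxia in wild-type cells, 31283 to 36279, against 39672 to 43316 in normoxia, and its part in the histone result was not tested.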

How the data were processed

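RNA (500 ng, labelled with the TotalPrep kit per the labels' protocols) of 63 cultures was hybridised to Illumina mouse BeadChips. The authors deposited 1 intensity per probe and array on a linear scale with a floor of 20; BeadStudio is named per the submitters' processing notes, with no version or normalization given in the sources used here. A companion table of non-normalized values was not used, since its columns could not be matched to samples.

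From the deposited intensity, log2 values were quantile-normalized and set to a common floor of 4.32. One array with a second tied floor was treated as at the floor. Probes above the floor in all 3 cultures of 1 line and exposure were kept (12757), and the probe of highest mean stood for its gene, giving 8742 genes. limma 3.58.1 in R 4.3.3 fitted the mean of each line and exposure with a density slope; genotypes were compared over line means, 2 against 2. Adjusted p-values are Benjamini-Hochberg over all genes, with a threshold of 0.05, two-sided. The number of arrays limits the precision. Tables and plots used Python 3.11.15, pandas 2.3.3 and matplotlib 3.10.9. The fit was tested on simulated data.

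The members and the gene lists were chosen with earlier results of these data known. Group values were printed for the 12 members with the largest wild-type difference at 24 h and for 4 chosen after their values were seen; lists name at most 4 genes per comparison, the largest past the threshold, except H3f3a, named after its value was seen. Density numbers did not pair cultures across exposures: over 63 pairs of 1 line and density the median correlation of deviations was 0.236, the lowest -0.161. Scaling, filter, array set, replicate block, error model and left-out lines or cultures were varied.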

Additional observations from a re-analysis of the deposited data

Results flagged for a closer look

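Of 105 groups of 6 cultures, 5 held a culture far from the others, where chance gives about 1 in 20. H3c7 was lowest in wild-type normoxia at 5.80 (WT2, next 6.22). H3c3 was highest at 5.55 in JMJD1a KO normoxia (next 4.77) and at 4.96 in wild-type cells at 24 h (WT1, next 4.47). H3c6 was highest in wild-type normoxia at 9.17 (WT1, next 8.88), and H3c8 in wild-type cells at 4 h at 5.47 (WT1, next 5.03).

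Cultures of different genotypes moved in opposite directions at 4 h for 2 members, and these differences were not tested. The H2bc4 change was 0.26 in JMJD1a KO and -0.25 in G9a KO cells, a difference of 0.50, and -0.09 in reconstituted cells, a difference of 0.35 from JMJD1a KO. Against wild-type cells (0.26), G9a KO differed by -0.51 and reconstituted cells by -0.35. The H3c6 change was -0.25 in JMJD1a KO and 0.37 in reconstituted cells, a difference of -0.62; 2 of the 3 reconstituted normoxia arrays lay in another array set, within the shared set the reconstituted change was -0.23, and with the set as a fixed block it was -0.0889, so the directions were not opposite there.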

How the results depend on the processing

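Over 24 comparisons and 24 settings, 268 of 309 counts of called members were within 1.5 times the reported count and 41 were not; the cause was not tested. Using only genes above the floor on all arrays (30 members), 10 members were called in wild-type cells at 24 h and 6 in reconstituted cells at 4 h. With no filter, G9a KO minus wild-type at 24 h gave 3, and with a trended robust variance 13. With the array set as a fixed block, reconstituted cells at 4 h gave 7 and density 29; as a random block, reconstituted cells at 4 h gave 2, and reconstituted minus G9a KO1 gave 7 in normoxia, 1 at 4 h and 1 at 24 h. JMJD1a KO2 alone with the set as a block gave 5 at 24 h, a setting chosen after seeing the data, as were the random block and the omission of the array with a second floor. Without holding line, JMJD1a KO at 4 h gave 8. With cultures taken as independent samples, JMJD1a KO minus wild-type gave 3 in normoxia, 6 at 4 h and 3 at 24 h, and G9a KO minus wild-type gave 28, 30 and 25. The replicate block gave 17 called members in JMJD1a KO cells at 24 h, against 16, and the reported counts in the 11 other exposure comparisons. H3c6 in reconstituted cells at 4 h turned to -0.0889 with the array set as a fixed block.

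Leaving out 1 line or culture at a time, wild-type counts ran from 12 to 19 at 24 h, 3 to 5 at 4 h and 10 to 12 between them. JMJD1a KO gave 8 to 24, 5 to 7 and 11 to 14. G9a KO gave 11 to 21, 11 to 12 and 21 to 21. Reconstituted cells gave 12 to 21, 4 to 15 and 8 to 14. G9a KO minus wild-type gave 0 to 14 in normoxia, 6 to 22 at 4 h and 0 to 0 at 24 h. JMJD1a KO minus wild-type gave 0 to 1 at 4 h and 0 to 2 at 24 h. Reconstituted minus G9a KO1 gave 15 to 19 in normoxia, 19 to 23 at 4 h and 18 to 19 at 24 h. A group left with 1 line is assumed to vary like the others. Values at the floor on some arrays limit 10 of the 40 tested members: H2ac4, H2bc18, H3c3, H3c7, H3c8, H3c10, H4c2, H4c3, H4c14 and H4f16.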

Other observations

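Density and hypoxia could be set side by side within each line, as a description with no test. H2bc4 at 24 h of hypoxia was higher at the highest than at the lowest seeding density in 7 of 7 lines, by 0.21 to 1.10 with a median of 0.45, and in 1 of 7 lines at 4 h and 2 of 7 in normoxia. H1f2 was higher at the highest density in 5 of 7 lines at 24 h, 0 of 7 at 4 h and 2 of 7 in normoxia. H3c10 was higher at the highest density in 7 of 7 lines at 4 h (0.36 to 0.93), 5 of 7 at 24 h and 6 of 7 in normoxia, and H3c7 in 0 of 7 at 24 h. Each line and exposure has 1 culture per density.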
